A study of Mus musculus with 15 samples.

Results

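The 40 genes described here are type I interferon-stimulated genes, a list of symbols that was given by name and matched to the Ensembl gene IDs of a bulk RNA-seq count table. The list was chosen with earlier results of these data known. Its shares set beside those of all genes are therefore a description and not an independent test. All 40 were found among the 45232 IDs of the table, and all 40 passed the filter on low counts, as did 17834 genes in all. The counts are from LSK cells of C57BL/6 mice, sorted for CD45.2 and for Sca-1 and c-Kit without lineage markers, a gate for blood stem cells and their first progeny. There were 5 groups of 3 libraries. WT cells formed 1 group. The other 4 came from lethally irradiated CD45.1 hosts that had received Idh2 R140Q Jak2 V617F marrow mixed with an equal share of CD45.1 WT cells, and that had then been given vehicle, AG221 (an inhibitor of mutant IDH2), ruxolitinib (an inhibitor of JAK kinases) or both drugs together. Gavage was given 2 times a day for 21 to 28 days, the doses in the labels being 60 mg/kg for ruxolitinib and 40 mg/kg for AG221, and the last dose came about 1.5 hours before the mice were killed. Mice of both sexes were used in the study, and ages lay between 6 months and 1.5 years.

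Several points of the design bear directly on interferon-stimulated genes. The mutant alleles were switched on by Mx1-Cre, whose promoter answers to interferon, after 5 injections of polyI:polyC, an RNA mimic that makes mice produce interferon. The interval between injections and sorting is not given for these libraries in the sources used here, nor whether the WT mice received them. The WT cells are not described as transplanted, so mutation, transplantation and induction cannot be told apart in a comparison with WT. WT and combined libraries carry names that begin with B, those of the other 3 groups begin with A, and what the letter stands for is not stated. Comparisons between an A group and a B group therefore have no value within a letter. Nor do the sources say whether a library came from 1 mouse, so p-values measure the spread between these libraries, which may be technical in part.

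Type I interferons are secreted proteins that bind the receptor formed by Ifnar1 and Ifnar2, which carries the kinases Tyk2 and Jak1. These kinases phosphorylate transcription factors, Stat2 among them, and a complex with Irf9 then enters the nucleus and binds a short DNA element in the promoters of interferon-stimulated genes. The products of these genes sense foreign RNA, degrade it, block its translation, trap virus particles or feed back on the pathway itself. Many of them are also expressed at a low tonic level without infection, and interferon is known to drive dormant blood stem cells into cycle. Because ruxolitinib blocks JAK1 and JAK2, it acts on a kinase of the interferon receptor as well as on the mutant kinase of this disease.

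The DNA element of the pathway was looked for in the promoters of the members, because the list was not chosen by sequence and the element is where the pathway meets its targets. The RefSeq promoter table (GRCm38.p6, 250 bases before to 50 after each start site) matched 29 of the 40 genes. The core letters GAAANNGAAA, searched on both strands with overlapping matches counted separately, were present for 13 of these 29 genes (44.8%), against 3.99% of all 27025 genes in that table. Shown next are the stretches around the matches upstream of the start site in 8 of the 13, chosen to cover the gene families described further on. They are written 5′ to 3′ on the strand of the gene, with the matched letters in capitals. Where the match lies on the opposite strand it reads TTTCNNTTTC.
Isg15, chr4:156200860-156200911, minus strand: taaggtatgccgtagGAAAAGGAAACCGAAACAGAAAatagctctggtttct
Ifit1, chr19:34640770-34640828, plus strand: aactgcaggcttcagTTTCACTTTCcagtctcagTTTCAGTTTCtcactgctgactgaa
Ifit3, chr19:34583358-34583431, plus strand: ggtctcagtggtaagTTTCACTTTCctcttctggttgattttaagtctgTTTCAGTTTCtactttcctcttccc
Oas1a, chr5:120907526-120907560, minus strand: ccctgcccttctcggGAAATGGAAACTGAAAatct
Oas3, chr5:120777710-120777749, minus strand: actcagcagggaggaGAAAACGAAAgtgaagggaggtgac
Rsad2, chr12:26456548-26456587, minus strand: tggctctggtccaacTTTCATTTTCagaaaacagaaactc
Bst2, chr8:71537572-71537617, minus strand: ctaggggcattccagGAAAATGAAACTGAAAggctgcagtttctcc
Cxcl10, chr5:92349078-92349117, minus strand: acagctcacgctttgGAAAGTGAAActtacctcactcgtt
In Isg15, 3 matches overlap end to end, and in Oas1a and Bst2 there are 2 that overlap. Ifit1 and Ifit3 each hold 2 separate matches. The stretch of Ifit3b, the neighbour of Ifit3 on chromosome 19, has the same 74 letters as that of Ifit3. The other 4 genes with the element were Trim30a, Ifih1, Ddx58 and Eif2ak2. The gamma-activated letters TTCNNNGAA were present for 5 of the 29 genes (17.2%), against 9.55% of all genes. A match is a description of these letters, and no match in this window says nothing of a factor.

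Total counts per library ran from 18836625 to 32174287, so that 3 counts, the limit that a count of 0 allows, corresponded to between 0.0957 and 0.157 CPM, the unit used for levels here, in which counts are scaled to a common library size. The amplified reads carry no molecular identifiers, and these limits cover counting error only. Kit, which defines the sorted cells, was present in every library at 739.8 to 1552 CPM. Of 9 LSK and stem cell markers, 2 were higher and 2 lower with vehicle than in WT (15.4% and 17.9% of all genes). Against WT, 1 was higher and 6 lower with AG221 (22.2% and 28.5%), and 1 and 2 with ruxolitinib (16.1% and 16.2%). None was called with combined treatment against WT, or with any treatment against vehicle. Group means of Flt3 ran from 94.0 CPM with AG221 to 571.5 CPM in WT. The part of such differences in the results was not tested. Ly6a, the gene for Sca-1 and itself known to respond to interferon, ran from 13.1 CPM in vehicle library A4 to 166 CPM in vehicle library A1. The WT libraries held the X-inactivation RNA Xist at 455 to 511 CPM and the Y-linked gene Ddx3y at no more than 0.101 CPM, while every mutant library held Ddx3y at 124 CPM or more, so that sex also cannot be told apart from genotype. Markers of plasma cells summed to 2104 to 6949 CPM in WT and 10.9 to 269 CPM in the mutant groups.

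Seen over all 40 genes, the lowest levels were in the groups that received ruxolitinib. In bulk RNA, fewer cells of a type and less RNA per cell cannot be told apart. The mean of a member was lowest of the 5 groups with combined treatment for 19 genes and with ruxolitinib for 17, and it was highest in WT for 25. The summed CPM of the members lay between 2218 and 2311 in WT, between 1892 and 2734 with vehicle, between 1787 and 2328 with AG221, between 1469 and 1652 with ruxolitinib and between 1400 and 1571 with combined treatment. In the 6 libraries with ruxolitinib, alone or combined, the median member was 0.85 to 1.13 log2 units below its WT mean, whereas the median over all tested genes lay between -0.22 and 0.07. The vehicle libraries differed among themselves, with medians of 0.25 in A1, -0.31 in A3 and -0.56 in A4. Library A1 was the highest of the vehicle libraries for 37 of the 40 genes, and A4 was the lowest for 26. The AG221 libraries had medians of -0.38, -0.52 and -0.12.

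**Figure D1:**
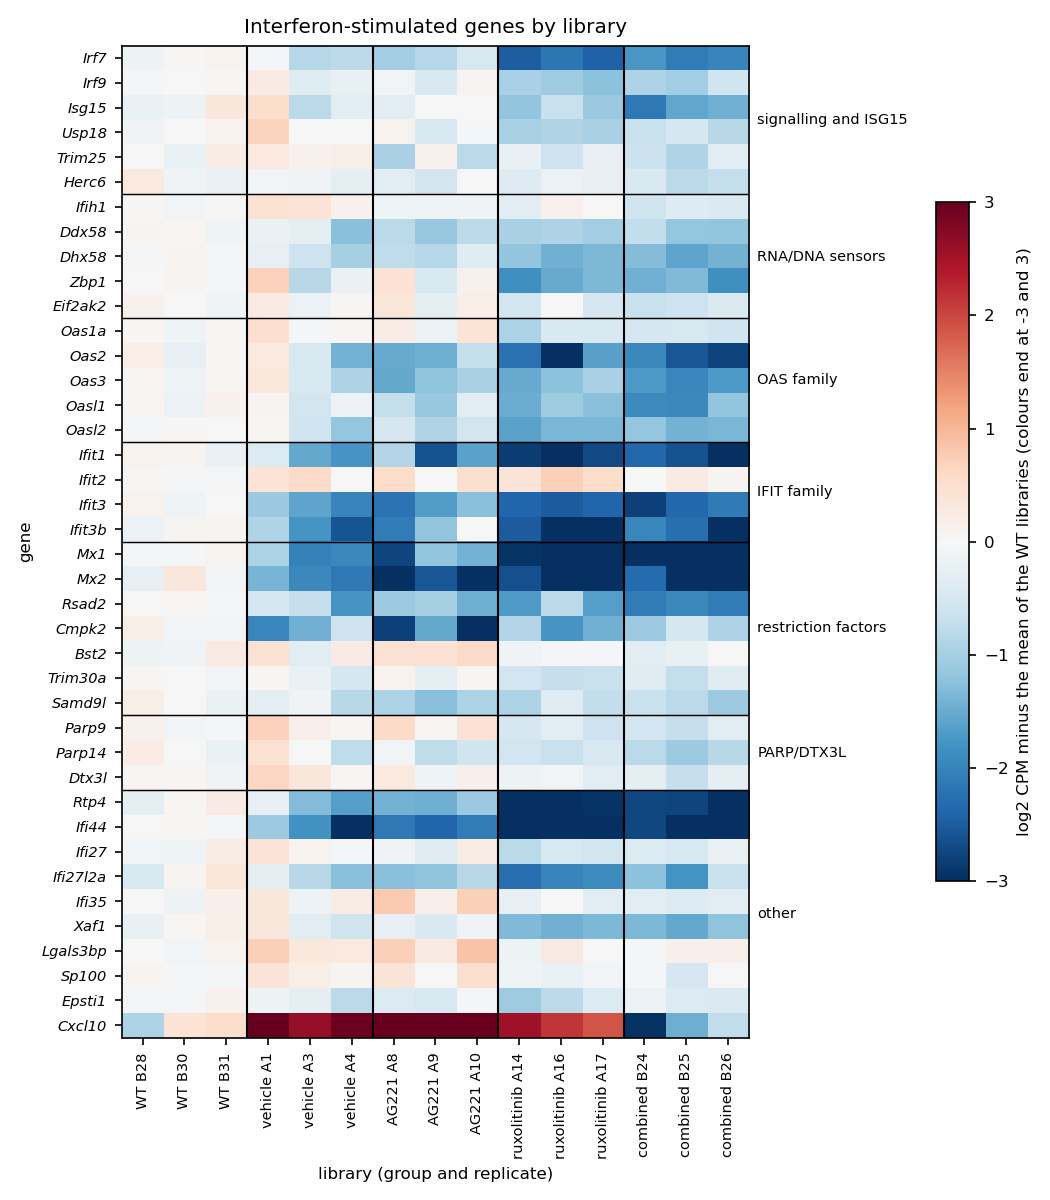
Levels of the 40 interferon-stimulated genes (rows, by role) in the 15 libraries (columns, by group), coloured by log2 CPM minus the mean of the 3 WT libraries, with blue lower and red higher and the colours ending at -3 and 3. The ruxolitinib and combined columns are blue for most rows, the vehicle columns go from the redder A1 to the bluer A4, and the Cxcl10 row is red in all vehicle, AG221 and ruxolitinib columns.

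Compared per kilobase of exon, the most abundant members over all libraries were Lgals3bp, a secreted glycoprotein, at 108.5 CPM per kb, the tether protein Bst2 at 69.9 and the small mitochondrial protein Ifi27 at 69.1. Dtx3l followed at 26.6 and Sp100 at 23.3. At the other end of the list stood Ifit3b, with 0 to 20 counts per library, so that its values rest on few reads. Ifit3b and Ifit3 are near-identical copies whose reads may have been split or dropped in counting, and both are uncertain.

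Whether ruxolitinib alone changed these genes was asked against vehicle, and here both groups have names in A. Rtp4 and Irf7 fell, by 2.31 and 1.84 on the log2 scale, and both were at adjusted p = 0.0263 in the fit of all libraries. Only 3 genes of the whole table were called in this comparison, 0.0168% of those tested, and the other was the T cell receptor gene Tcrg-C1. At an unadjusted p under 0.05 stood 29 of the 40 members (72.5%), all of them lower, against 4.56% of all genes. All 3 ruxolitinib libraries lay below all 3 vehicle libraries for 25 of the 40 (62.5%), against a background of 4.5%, and the reverse order occurred for none of them. The fold change was below 0 for 39 of the 40, with Ifit2 as the exception (Cmpk2 joined it without vehicle A4 or ruxolitinib A16), and the median was -0.79, against 0.01 over all genes. DESeq2 called 9 members, all lower, against 0.232% of genes called lower by it, which added Irf9, Usp18, Xaf1, Zbp1, Oas2, Ifit1 and Ifi27. The median stayed between -0.57 (without vehicle library A1) and -0.91 (without A4) when single libraries were left out. The calls depended on single libraries, with 0 calls without ruxolitinib A14, A16 or A17 and 4 without vehicle A4, against 0% and 0.0471% of all genes. In a fit of only these groups Irf7 and Rtp4 had log2 changes of -1.86 and -2.32 with adjusted p = 1, and no gene of the table was called.

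**Figure D2:**
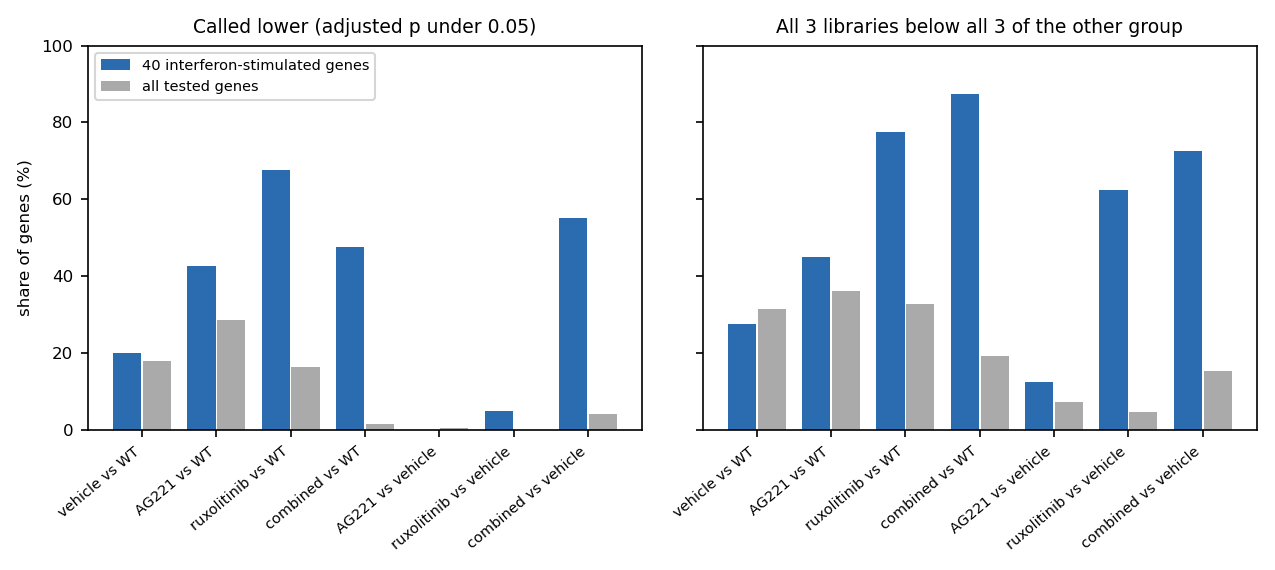
Share of the 40 interferon-stimulated genes (blue) and of all 17834 tested genes (grey) that were called lower (left) or whose 3 libraries all lay below all 3 libraries of the other group (right), in percent, for 7 comparisons. Against vehicle, the blue bars stand far above the grey bars with ruxolitinib on the right (62.5% and 4.5%) and with combined treatment on both sides (55% and 4.21% on the left), and against WT they are close for the vehicle group (20% and 17.9%).

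A majority of the members were lower with combined treatment. Relative to vehicle, 22 of the 40 fell and none rose (adjusted p under 0.05), against 4.21% of all genes called lower and 8.28% called higher. Among them were Cxcl10, the transcription factors Irf7 and Irf9, all 5 genes of the 2′,5′-oligoadenylate synthetase family, all 3 genes of the Parp9 and Dtx3l group, and Isg15 and Usp18. For 29 of 40 members all combined libraries lay below all vehicle libraries, against 15.2% of genes. The median change was -0.84, against 0.04 over all genes. Leaving out vehicle library A1, which was high for most members, left 8 calls and a median of -0.61, leaving out B25 left 10 calls, and leaving out B24 left 13, against 5.26%, 6.12% and 5.52% of all genes. These groups differ in the letter of their names as well as in treatment, which cannot be told apart.

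With AG221 alone no member was called against vehicle by edgeR's quasi-likelihood test, where 0.987% of all genes were called and 0.516% were called lower. At an unadjusted p under 0.05 there were 6 (1 higher and 5 lower), against 25.2% of all genes. DESeq2 called 3, namely Ifih1, Oas3 and Samd9l, all lower, against 7.51% of genes called lower by it. The members with the smallest p were Ifih1 (-0.46 ± 0.15, adjusted p = 0.0951), Oas3 (-0.96 ± 0.27, adjusted p = 0.0758) and Samd9l (-0.67 ± 0.20, adjusted p = 0.0882). For 5 members all AG221 libraries lay below all vehicle libraries (12.5%, background 7.26%). The median change was -0.16, against -0.006 over all genes, and it was 0.13 without vehicle library A1. Without AG221 library A9 there were 5 calls, a share of 12.5% against 24.4% of all genes in the same fit. AG221 libraries A8 and A10 and ruxolitinib library A16 stood apart from the others of their groups in low Ifnar2 and Jak1, described further on.

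The difference between both single drugs was tested directly. With AG221, 9 members were higher than with ruxolitinib and none was lower, against 2.06% of all genes called higher and 1.37% called lower. They were Irf7 (1.58 ± 0.23), Rtp4 (1.93 ± 0.31), Irf9, Usp18, Zbp1, Xaf1, Oas1a, Parp9 and Ifi35. All AG221 libraries lay above all ruxolitinib libraries for 25 of 40, against 12.2% of genes. The number of calls rested on single libraries, with 0 calls without ruxolitinib A14 or A17, 1 without AG221 A8, 2 without A10, 4 without ruxolitinib A16 and 21 without AG221 A9. Calls over all genes swung with them, from 0 without A17 and 1 gene without A14 to 25.1% of genes without A9. A fit of only these groups called no member and no other gene.

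Combined treatment was then set against each drug alone. Compared with AG221, 21 members were lower and Cmpk2 was higher, against 14.3% of all genes called lower and 18.9% called higher. Upper-quartile scaling gave 32 lower, against 24.4% of all genes. Without single libraries the calls were 11 (without B24 or B25), 12 (without AG221 A10) and 13 (without A8), against 15.7% to 21.3% of all genes in these fits. Neutrophil markers moved with this comparison, with sums over 8 genes of 438 to 679 CPM with AG221 and 36.7 to 173 CPM with combined treatment, 3 of the 8 called lower and a median change of -2.21, and their part in the result was not tested. Relative to ruxolitinib alone, only Cxcl10 differed (-3.79 ± 0.60, adjusted p = 0.00201), where 12.4% of all genes were called, and the median change was -0.03. There were 2 calls without ruxolitinib A14, against 8.87% of all genes in that fit. The interaction, which asks whether the effect of ruxolitinib was different with AG221 than without it, was past the threshold for Cxcl10 alone among the members, against 8.42% of all genes. It was not called without combined library B25, and without AG221 A9 there were 4 calls (10%), against 31.8% of all genes in that fit.

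Measured against WT, few members were higher in the mutant cells given vehicle. Of the 40, 2 were higher with vehicle (Cxcl10 and Lgals3bp) and 8 were lower (Ifi44, Mx1, Mx2, Ifit3, Cmpk2, Rtp4, Rsad2 and Dhx58). The share higher (5%) was below the background of 15.4%, and the share lower (20%) was near the background of 17.9%. All 3 vehicle libraries lay below all 3 WT libraries for 11 members (27.5%, background 31.3%). Under offsets for GC content 4 were higher and 5 lower, where 4145 of all 17834 genes were higher and 15.6% lower. The median over all genes moved from -0.09 to 0.09. Without WT library B30 there were 3 calls, without vehicle A3 or A4 4, without WT B31 5 and without WT B28 6, against 10.5% to 30.9% of all genes. In ruxolitinib-treated cells 27 members were below WT and 2 above it (Cxcl10 and Ifit2), against 16.2% lower and 16.1% higher in all genes, and 31 members had all ruxolitinib libraries below WT (77.5%, background 32.8%). With combined treatment 19 were below WT and none above, against 1.61% of all genes lower and 1.63% higher, and in these groups, which share the letter B, all 3 combined libraries lay below all 3 WT libraries for 35 of the 40 (background 19.3%). Leaving out B25 left 8 calls for combined treatment, against 0.46% of all genes. AG221-treated cells had 17 below and 4 above WT, against 28.5% and 22.2% of all genes, and 18 members had all AG221 libraries below WT (45%, background 36%). Under GC offsets 7 members were above and 12 below, where 5345 of all 17834 genes were above and 22.7% below. Without library A8 there were 13 calls, against 33.9% of all genes.

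Markers of plasmacytoid dendritic cells, a rare cell type known for strong interferon production and high Irf7, summed over 5 genes to 16.3 to 26.1 CPM in WT and 0.968 to 14.2 CPM in the mutant groups. The defining marker Siglech measured 7.29, 6.27 and 3.99 CPM in WT, 3.99, 2.94 and 0.355 with vehicle, 0.940, 5.02 and 2.07 with AG221, 3.25, 0 and 1.45 with ruxolitinib and 1.10, 0.138 and 0.740 with combined treatment, and Cox6a2 of the same list measured 2.03, 1.79 and 2.08 CPM in WT, 2.86, 0.861 and 1.89 with vehicle, 2.78, 2.25 and 2.04 with AG221, 1.37, 0.897 and 1.45 with ruxolitinib and 3.50, 0.346 and 3.42 with combined treatment, with group means with AG221 and combined treatment above that of WT. Klk1 was at no more than 0.254 CPM in any library. Within the mutant groups their sum was 2.72 to 8.99 CPM with vehicle and 1.97 to 5.42 CPM with ruxolitinib. Markers of monocytes, macrophages and dendritic cells, 9 genes, summed to 495 to 770.5 CPM with vehicle, 698 to 1305 with ruxolitinib, 442 to 597 with combined treatment and 1225 to 1494 with AG221. The part of these cells in the results was not tested.

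Upstream of the members, ligand transcripts were close to absent, since the 9 interferon genes listed summed to 0 to 1.82 CPM in any library and none was tested. Of the 4 receptor genes, none was called with ruxolitinib or combined treatment against vehicle, and Ifngr1, a receptor chain for interferon gamma, was higher with vehicle than in WT (0.84 ± 0.15). All 4 were called with AG221 against WT, 1 higher and 3 lower, where 22.2% and 28.5% of all genes were called. With combined treatment against AG221, 3 were higher and 1 was lower, where 18.9% and 14.3% of all genes were called. Ifnar2 levels were 111, 117 and 124 CPM in WT, 52.8, 81.8 and 92.4 with vehicle, 17.5, 70.8 and 20.7 with AG221, 114, 30.3 and 94.1 with ruxolitinib and 124, 96.7 and 141 with combined treatment. The low values belong to AG221 libraries A8 and A10 and to ruxolitinib library A16. Jak1 showed the same libraries, with 550.2, 522 and 454 CPM in WT, 197, 377 and 337 with vehicle, 96.8, 213 and 110.5 with AG221, 368, 161 and 357 with ruxolitinib and 514, 482 and 418 with combined treatment. None of the IRF genes outside the members (Irf1, Irf2, Irf3, Irf5 and Irf8) was called in any comparison.

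Stat2 is a transcription factor that the receptor kinases activate. The levels of Stat2 were 76, 73.3 and 61 CPM in WT, 72.9, 60.05 and 55.9 with vehicle, 25, 47.3 and 30.3 with AG221, 62.3, 50.5 and 67.2 with ruxolitinib and 52.4, 51.1 and 53.3 with combined treatment, with no call against vehicle, and it was lower than WT with AG221 (-1.04 ± 0.21, adjusted p = 0.00203). Among 9 tested sensors and adaptors, Mavs and Myd88 were higher and Tlr7, which lies on the X chromosome, was lower with vehicle than in WT, and none was called with ruxolitinib or combined treatment against vehicle. Of 5 feedback genes, Socs3 (2.17 ± 0.79) and Ptpn2 (0.57 ± 0.14) were higher and Socs1 (-2.25 ± 0.73) was lower with vehicle than in WT, and again none was called against vehicle. Socs1, which blocks JAK kinases, was higher with combined treatment than with AG221 (3.53 ± 0.82, adjusted p = 0.00704) or ruxolitinib (3.08 ± 0.79, adjusted p = 0.0206), and its levels were 2.76, 7.28 and 2.18 CPM in WT, 0.489, 1.08 and 0.987 with vehicle, 0.0427, 0.704 and 0.182 with AG221, 0.754, 0.0855 and 0.410 with ruxolitinib and 4.17, 4.56 and 1.85 with combined treatment. It was the feedback gene past the threshold for the interaction (4.58 ± 1.13, adjusted p = 0.038).

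The members that signal are led by Irf7 (chr7:141262706-141266481), the factor that amplifies interferon production. Irf7 measured 32.3, 36.5 and 38.8 CPM in WT, 34.4, 19.9 and 20.9 with vehicle, 17.2, 19.9 and 25.5 with AG221, 6.41, 7.86 and 6.64 with ruxolitinib and 10.6, 8.33 and 9.02 with combined treatment. The ruxolitinib and combined libraries overlapped with no other group and not with each other. The change was -1.84 ± 0.23 with ruxolitinib and -1.43 ± 0.23, adjusted p = 0.00267 with combined treatment, and Irf7 was also lower than WT with AG221 (-0.78 ± 0.22, adjusted p = 0.012). A small part of its exons (1.19%) overlaps Phrf1 on the opposite strand. Irf9, the DNA-binding partner of Stat2, measured 119, 126 and 128 CPM in WT, 147, 95.7 and 106 with vehicle, 118, 90.5 and 132 with AG221, 63.5, 59.1 and 52.5 with ruxolitinib and 65.7, 59.8 and 81.6 with combined treatment. It fell with combined treatment (-0.75 ± 0.19, adjusted p = 0.0173), and with ruxolitinib every library was below every vehicle library (-0.996 ± 0.19, adjusted p = 0.146).

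Isg15, a ubiquitin-like protein that is attached to other proteins, measured 5.62, 5.83 and 8.18 CPM in WT, 9.40, 3.67 and 5.05 with vehicle, 5.04, 6.52 and 6.37 with AG221, 2.78, 4.06 and 2.95 with ruxolitinib and 1.41, 2.14 and 2.31 with combined treatment. Its fall with combined treatment was -1.62 ± 0.34, adjusted p = 0.00802, and the ruxolitinib value (-0.89 ± 0.33, adjusted p = 1) was not called. Usp18 removes Isg15 from proteins and blocks the interferon receptor. Levels of Usp18 were 22.9, 24.9 and 26.6 CPM in WT, 39.4, 24.4 and 24.5 with vehicle, 26.7, 18 and 23.7 with AG221, 12.5, 13.2 and 12.5 with ruxolitinib and 15.7, 17.2 and 14 with combined treatment, and the 3 ruxolitinib libraries were the lowest of all 15. With combined treatment it fell by 0.92 on the log2 scale (adjusted p = 0.0117). Trim25, a ligase acting on the RNA sensor RIG-I, measured 77.6, 68.2 and 92.6 CPM in WT, 96.4, 86.9 and 89.7 with vehicle, 40.4, 85.8 and 45 with AG221, 67.7, 51.5 and 66.3 with ruxolitinib and 50.4, 42.3 and 62.5 with combined treatment, with 2 low AG221 libraries, A8 and A10, and a call at the threshold for combined treatment (-0.82 ± 0.25, adjusted p = 0.0499). The Isg15 ligase gene Herc6 was the only member called in none of the 11 comparisons, at 68.3, 52.2 and 48.7 CPM in WT, 52.6, 51.8 and 46.6 with vehicle, 43.9, 38.1 and 56.5 with AG221, 42.4, 49.6 and 47.2 with ruxolitinib and 40.6, 31.6 and 34 with combined treatment.

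**Figure D3:**
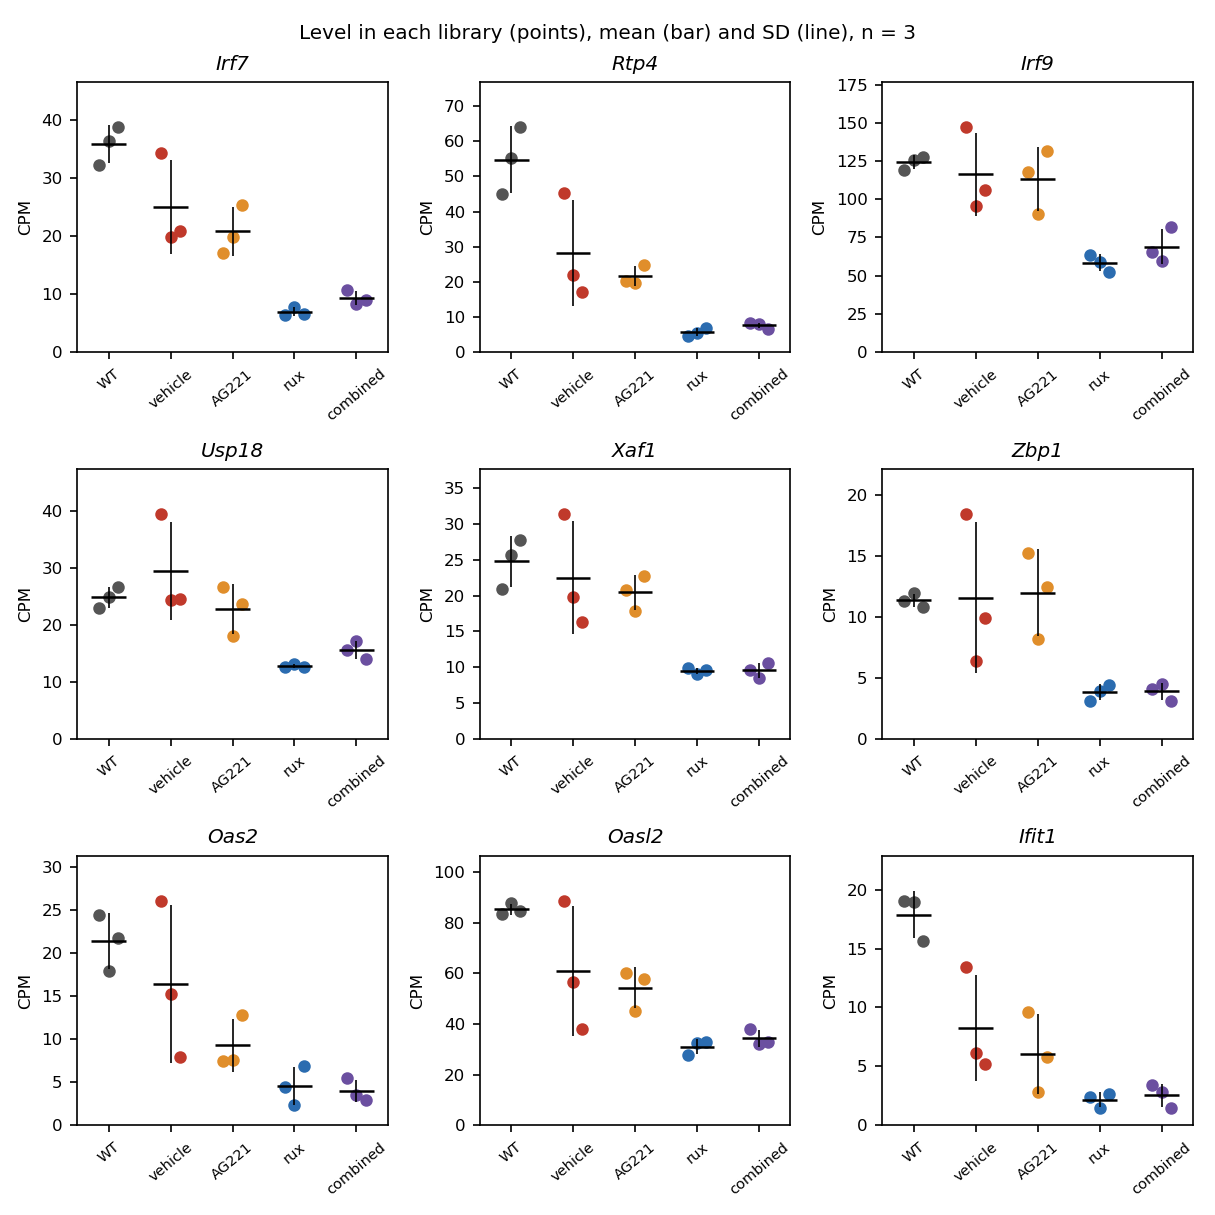
Level in CPM (linear axis from 0) of 9 members in each library (points) by group, with the mean (bar) and SD (line) of n = 3. In all 9 panels the ruxolitinib points sit below all vehicle points, and in the vehicle group 1 library, A1, is highest.

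Among the sensors, Zbp1, which recognises Z-form nucleic acids and can start necroptosis, measured 11.3, 12 and 10.8 CPM in WT, 18.5, 6.35 and 9.95 with vehicle, 15.3, 8.21 and 12.4 with AG221, 3.11, 3.93 and 4.44 with ruxolitinib and 4.12, 4.46 and 3.10 with combined treatment. All 6 libraries with ruxolitinib were below all other 9. Zbp1 fell with combined treatment (-1.57 ± 0.35, adjusted p = 0.01) and stood at -1.59 ± 0.35, adjusted p = 0.328 with ruxolitinib. Dhx58, the RIG-I-like helicase LGP2, measured 34.8, 38.1 and 35.3 CPM in WT, 30.5, 23.5 and 18 with vehicle, 21.3, 19.98 and 28.1 with AG221, 15.8, 13.2 and 14.2 with ruxolitinib and 14.6, 12 and 13.5 with combined treatment. It was lower with vehicle than in WT (-0.59 ± 0.20, adjusted p = 0.0374) and lower with combined treatment than with vehicle (-0.85 ± 0.20, adjusted p = 0.0142). Ifih1, the long-RNA sensor MDA5, measured 38.6, 35.6 and 38.3 CPM in WT, 51.2, 49.7 and 40.6 with vehicle, 34.3, 34.3 and 34.3 with AG221, 30.2, 41 and 37.9 with ruxolitinib and 24.7, 28.5 and 27.7 with combined treatment. Its combined libraries were the lowest of all, at -0.81 ± 0.15, adjusted p = 0.00422 against vehicle, and its 3 AG221 libraries were all below vehicle.

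Ddx58, the gene of RIG-I, measured 119, 117 and 102 CPM in WT, 98.1, 92.4 and 47.1 with vehicle, 63.9, 50.8 and 64.9 with AG221, 57.5, 59.4 and 54.9 with ruxolitinib and 67.3, 49.8 and 49.6 with combined treatment, with the lowest vehicle value in A4 and no call against vehicle. It was lower than WT with each treatment, for example -1.02 ± 0.23 with combined treatment. The RNA-activated kinase gene Eif2ak2 measured 69.6, 64.6 and 58.6 CPM in WT, 76.2, 56.8 and 65.6 with vehicle, 82.4, 52.9 and 73.1 with AG221, 43.3, 63.7 and 44.8 with ruxolitinib and 40.3, 41.4 and 47.8 with combined treatment. It was called only for combined treatment against AG221 (-0.69 ± 0.20, adjusted p = 0.0174).

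The 2′,5′-oligoadenylate synthetases make a messenger that switches on RNase L, and their genes lie in 2 clusters on chromosome 5. Oas2 measured 24.5, 18 and 21.7 CPM in WT, 26.1, 15.3 and 7.89 with vehicle, 7.44, 7.65 and 12.8 with AG221, 4.43, 2.39 and 6.86 with ruxolitinib and 5.48, 3.52 and 3.01 with combined treatment. Its change was -1.84 ± 0.44 with ruxolitinib, not called, and -2.04 ± 0.45, adjusted p = 0.00993 with combined treatment. Oas3, with a start site 27808 bases from that of Oas2, measured 25.1, 22.1 and 24.9 CPM in WT, 29.8, 17.5 and 12.7 with vehicle, 8.29, 10.4 and 12.2 with AG221, 8.34, 10.1 and 12.2 with ruxolitinib and 7.25, 6.12 and 7.17 with combined treatment. In Oas3 the AG221 libraries, too, lay below all vehicle libraries, and the 3 combined libraries were the lowest of all 15. Its fall with combined treatment was -1.55 ± 0.28, adjusted p = 0.00386.

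Oas1a, which carries 2 overlapping elements directly before its start site, measured 31.5, 27.9 and 31.9 CPM in WT, 42.9, 29.1 and 31.4 with vehicle, 35.6, 27.2 and 40.1 with AG221, 15.8, 22.2 and 22.1 with ruxolitinib and 21.4, 21.9 and 20.1 with combined treatment. Its values against vehicle were -0.78 ± 0.20, adjusted p = 0.491 with ruxolitinib and -0.71 ± 0.20, adjusted p = 0.0322 with combined treatment, the smallest fitted change of the family in both. The synthetase-like gene Oasl1, whose mouse protein is known to restrain Irf7 translation, measured 14.1, 11.8 and 14.7 CPM in WT, 14.4, 9.16 and 12.2 with vehicle, 8.21, 6.10 and 10.7 with AG221, 4.76, 6.41 and 5.60 with ruxolitinib and 3.55, 3.46 and 5.92 with combined treatment and fell with combined treatment (-1.46 ± 0.28, adjusted p = 0.0049). Its neighbour Oasl2 measured 83.4, 87.7 and 84.7 CPM in WT, 88.7, 56.6 and 38 with vehicle, 60.1, 45.2 and 57.9 with AG221, 27.9, 32.7 and 32.8 with ruxolitinib and 38.1, 32 and 33 with combined treatment, with vehicle library A4 reaching into the range of the combined group. All 5 members of the family had ruxolitinib libraries wholly below vehicle, and none passed the adjusted threshold there.

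The IFIT proteins bind viral RNA and block its translation, and their genes share a cluster on chromosome 19. Ifit1 measured 19, 19 and 15.6 CPM in WT, 13.4, 6.13 and 5.17 with vehicle, 9.62, 2.86 and 5.78 with AG221, 2.40, 1.45 and 2.65 with ruxolitinib and 3.39, 2.83 and 1.48 with combined treatment. It fell with combined treatment (-1.68 ± 0.46, adjusted p = 0.0307) and stood at -1.92 ± 0.47, adjusted p = 0.429 with ruxolitinib. Ifit3 measured 2.47, 2.09 and 2.28 CPM in WT, 1.02, 0.702 and 0.513 with vehicle, 0.427, 0.657 and 0.909 with AG221, 0.377, 0.342 and 0.373 with ruxolitinib and 0.261, 0.380 and 0.463 with combined treatment, already lower than WT with vehicle (-1.61 ± 0.34, adjusted p = 0.00666). Ifit3b measured 0.544, 0.674 and 0.671 CPM in WT, 0.301, 0.128 and 0.0395 with vehicle, 0.0855, 0.235 and 0.618 with AG221, 0.0471, 0 and 0 with ruxolitinib and 0.104, 0.0691 and 0 with combined treatment, and ruxolitinib libraries held 1 count against 55 in WT. Corrected for library size that is a ratio of 0.0222, with an exact 95% counting interval from 0.000551 to 0.129, and against the 13 counts with vehicle the ratio is 0.0897 (0.00211 to 0.597). Both intervals pool the libraries of a group and cover counting error only. They leave out the spread between libraries, which held 8, 4 and 1 counts with vehicle, and so are not intervals for the group difference. The first 3 genes named here had lower values in all ruxolitinib libraries than in any WT library.

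Ifit2 was the member whose fitted change with ruxolitinib against vehicle was above 0. It measured 52.5, 48.6 and 49.3 CPM in WT, 67.1, 74.8 and 49.5 with vehicle, 73.2, 49.4 and 70.1 with AG221, 65.6, 81.7 and 73.6 with ruxolitinib and 49.7, 59.6 and 52.7 with combined treatment, so that the ruxolitinib libraries had the highest group mean, above WT (0.55 ± 0.18, adjusted p = 0.0335). Against vehicle the difference of 0.21 ± 0.18 was not called (95% interval -0.18 to 0.59). Of the 4 IFIT genes, the promoter window of Ifit2 alone held no GAAANNGAAA match.

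Among the restriction factors, Mx1 and Mx2 are genes of GTPases that block virus replication. The Mx1 gene of C57BL/6 mice is known to encode no working protein, and the gene annotation (GENCODE M21) lists Mx2 as a polymorphic pseudogene. Mx1 measured 5.73, 5.73 and 6.34 CPM in WT, 3.01, 1.40 and 1.50 with vehicle, 0.812, 2.58 and 2.18 with AG221, 0.706, 0.513 and 0.522 with ruxolitinib and 0.626, 0.207 and 0.648 with combined treatment. It was lower with vehicle than in WT (-1.59 ± 0.44, adjusted p = 0.0182) and fell further with combined treatment (-2.02 ± 0.49, adjusted p = 0.0164). Mx2 measured 3.27, 4.95 and 3.69 CPM in WT, 1.43, 0.957 and 0.829 with vehicle, 0.385, 0.610 and 0.364 with AG221, 0.565, 0.342 and 0.0373 with ruxolitinib and 0.731, 0.242 and 0.278 with combined treatment, with a wide range among the ruxolitinib libraries, whose lowest value is a single count and lies below the limit that a count of 0 allows. Its vehicle level was below WT (-1.89 ± 0.54, adjusted p = 0.0205), and no treatment was called against vehicle.

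Rsad2 and Cmpk2, an antiviral radical enzyme and a mitochondrial nucleotide kinase, are divergent neighbours on chromosome 12, with 12752 bases between their starts. Rsad2 measured 27.6, 28.4 and 26.2 CPM in WT, 19.4, 16.9 and 7.93 with vehicle, 12.7, 13.7 and 9.82 with AG221, 8.43, 15.7 and 8.62 with ruxolitinib and 6.31, 7.15 and 6.38 with combined treatment. Cmpk2 measured 54.5, 45.5 and 45.3 CPM in WT, 12.4, 17.7 and 31.2 with vehicle, 6.84, 16.5 and 5.64 with AG221, 26.1, 14.1 and 17.7 with ruxolitinib and 22.6, 33.4 and 25.2 with combined treatment. Both were lower with vehicle than in WT, with log2 changes of -0.89 ± 0.31 and -1.24 ± 0.40. Their values differed under treatment, since Rsad2 was lower with combined treatment than with vehicle (-1.16 ± 0.31, adjusted p = 0.027) while Cmpk2 stood at 0.41 ± 0.40, adjusted p = 0.57, and against AG221 Rsad2 was lower (-0.87 ± 0.31) and Cmpk2 higher (1.49 ± 0.41, adjusted p = 0.0146). The low Cmpk2 values with AG221 are those of A8 and A10, while A9 lay within the vehicle range, and the call was lost without A8 (adjusted p = 0.0711), A10 (0.0669) or combined library B25 (0.0532).

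**Figure D4:**
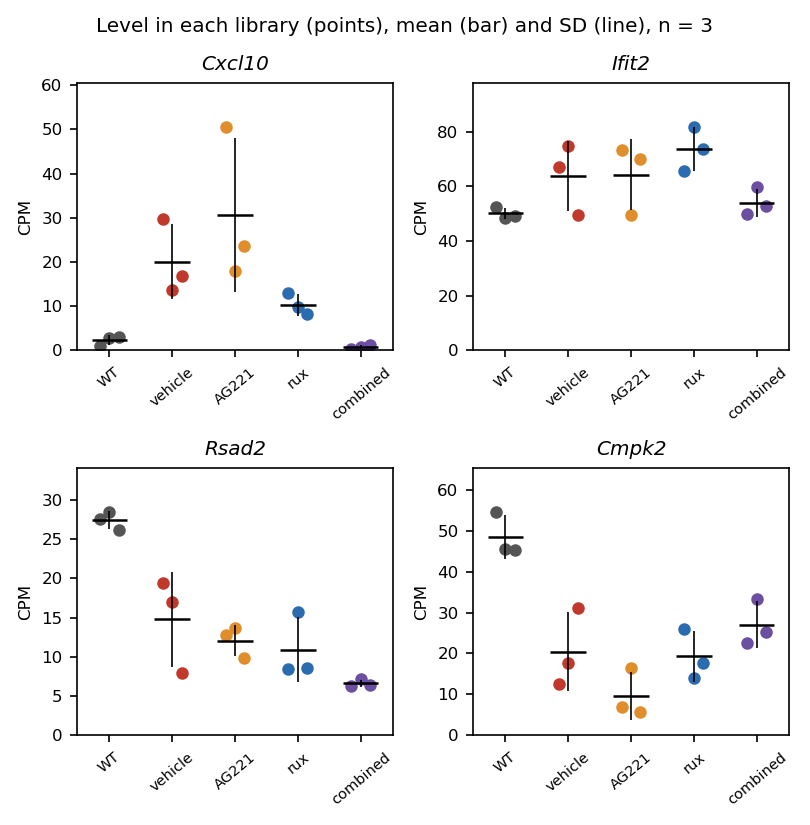
Level in CPM (linear axis from 0) of Cxcl10, Ifit2, Rsad2 and Cmpk2 in each library (points), with the mean (bar) and SD (line) of n = 3 per group. Cxcl10 is near 0 with combined treatment (0.209 to 1.25 CPM) and high in the other mutant groups, Ifit2 is highest with ruxolitinib, and the neighbours Rsad2 and Cmpk2 part between AG221 and combined treatment.

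Bst2 measured 53.1, 54.4 and 70.5 CPM in WT, 80.8, 47.4 and 69.7 with vehicle, 80.6, 79.4 and 87.6 with AG221, 53.7, 56.4 and 57.5 with ruxolitinib and 47.5, 50.4 and 58.5 with combined treatment, and Trim30a, which dampens inflammatory signalling, measured 86.3, 82.2 and 78.3 CPM in WT, 85.5, 71.7 and 56.7 with vehicle, 88.3, 68.1 and 85.1 with AG221, 55, 51.2 and 52.1 with ruxolitinib and 63.6, 50.2 and 64.2 with combined treatment. Samd9l, a growth-restraining antiviral factor, measured 141, 126 and 109 CPM in WT, 103, 116 and 69.7 with vehicle, 65.1, 52.7 and 64.3 with AG221, 66, 97.1 and 74.9 with ruxolitinib and 78.5, 71.2 and 58.7 with combined treatment. None of the 3 was called against vehicle. Bst2 was higher with AG221 than in WT (0.48 ± 0.18, adjusted p = 0.042), and it was lower with combined treatment than with AG221 (-0.66 ± 0.18, adjusted p = 0.0149), whereas Samd9l was lower than WT with AG221 (-1.05 ± 0.21, adjusted p = 0.00164). Trim30a was lower than WT with ruxolitinib (-0.64 ± 0.16, adjusted p = 0.0132).

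Parp9 and Dtx3l form a complex that modifies histones and helps the interferon response, and their divergent start sites on chromosome 16 are 681 bases apart. Parp9 measured 95.6, 81.7 and 84.3 CPM in WT, 139.8, 96.3 and 89.9 with vehicle, 129.6, 89.5 and 118 with AG221, 61.6, 69.4 and 56.8 with ruxolitinib and 58.5, 53.6 and 69.8 with combined treatment. Dtx3l measured 156, 158 and 141 CPM in WT, 233, 192 and 157 with vehicle, 187, 139 and 169 with AG221, 137, 144 and 121 with ruxolitinib and 124, 94.2 and 127 with combined treatment. Both fell with combined treatment against vehicle (-0.84 ± 0.19, adjusted p = 0.011 and -0.75 ± 0.17, adjusted p = 0.0105), and all ruxolitinib libraries were below all vehicle libraries. Between 8.0% and 9.4% of their exons overlap on opposite strands, and the strand setting of the counting is not stated. Whether reads in the overlap were counted for 1 of these genes or left out is therefore not known. Parp14, which lies nearby, measured 75, 64 and 56.3 CPM in WT, 88.1, 65.7 and 38 with vehicle, 60.9, 37.9 and 43 with AG221, 43, 40.6 and 46.1 with ruxolitinib and 36.6, 30.5 and 36.1 with combined treatment and fell likewise (-0.89 ± 0.26, adjusted p = 0.0373).

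Among the remaining members, Rtp4 (chr16:23520291-23614222), an antiviral zinc finger protein, had the largest called fall with ruxolitinib. It measured 44.9, 55.4 and 63.9 CPM in WT, 45.3, 22 and 17.2 with vehicle, 20.3, 19.6 and 24.9 with AG221, 4.57, 5.47 and 6.94 with ruxolitinib and 8.14, 7.91 and 6.71 with combined treatment. The libraries with ruxolitinib were below all others, and the group means went from 54.7 CPM in WT to 5.66 CPM with ruxolitinib. Against vehicle, combined treatment gave -1.89 ± 0.31, adjusted p = 0.00282, and vehicle itself was lower than WT (-0.96 ± 0.30, adjusted p = 0.0279). Of the exons of Rtp4, 13.9% overlap Gm45338 on the same strand.

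Ifi44 measured 56.4, 58.9 and 55.3 CPM in WT, 26.8, 16.1 and 5.76 with vehicle, 12.7, 10.9 and 13.3 with AG221, 5.09, 7.09 and 5.60 with ruxolitinib and 8.56, 5.60 and 6.43 with combined treatment. All 12 mutant libraries were below WT, and the vehicle value against WT was -1.81 ± 0.39, adjusted p = 0.00655, with no call of a treatment against vehicle. Xaf1, a partner of the apoptosis inhibitor XIAP, measured 20.9, 25.6 and 27.8 CPM in WT, 31.4, 19.8 and 16.3 with vehicle, 20.8, 17.8 and 22.7 with AG221, 9.84, 9.02 and 9.59 with ruxolitinib and 9.60, 8.47 and 10.6 with combined treatment. It fell with combined treatment (-1.24 ± 0.23, adjusted p = 0.00442) and stood at -1.25 ± 0.23, adjusted p = 0.133 with ruxolitinib. Ifi27 measured 106, 102 and 129.8 CPM in WT, 149, 121 and 108 with vehicle, 104, 86.9 and 130.2 with AG221, 64.1, 80.2 and 76.6 with ruxolitinib and 83.8, 80.00 and 97.6 with combined treatment, and the neighbouring Ifi27l2a measured 3.34, 4.92 and 6.00 CPM in WT, 3.83, 2.55 and 1.89 with vehicle, 1.88, 1.97 and 2.55 with AG221, 0.895, 1.11 and 1.19 with ruxolitinib and 1.93, 1.28 and 2.87 with combined treatment. Both were lower than WT with ruxolitinib (-0.61 ± 0.18 and -2.15 ± 0.36).

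Ifi35 measured 34.8, 31.4 and 39.2 CPM in WT, 44.7, 31.7 and 40.6 with vehicle, 60.3, 38.7 and 57.1 with AG221, 29.5, 34.9 and 27.6 with ruxolitinib and 27.7, 26.1 and 28.1 with combined treatment. It was higher with AG221 than with ruxolitinib (0.76 ± 0.19, adjusted p = 0.0447) or in WT (0.56 ± 0.19, adjusted p = 0.0237), and 16.8% of its exons overlap Gm11626 on the opposite strand. Epsti1 measured 59, 59.3 and 67 CPM in WT, 55.5, 50.5 and 35.4 with vehicle, 46.4, 44 and 59.4 with AG221, 29.3, 35.7 and 46.6 with ruxolitinib and 54.7, 46.4 and 45.9 with combined treatment, lower than WT with ruxolitinib (-0.73 ± 0.20, adjusted p = 0.0186) and with no call against vehicle.

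Lgals3bp and Sp100 were the most abundant members by CPM. Lgals3bp measured 252, 242 and 276 CPM in WT, 420.3, 321 and 315 with vehicle, 422, 309 and 461 with AG221, 231, 308 and 258 with ruxolitinib and 250.1, 285 and 285 with combined treatment, higher with vehicle than in WT (0.46 ± 0.17, adjusted p = 0.0496) and at -0.41 ± 0.17, adjusted p = 1 with ruxolitinib. Sp100, a protein of nuclear bodies, measured 180.3, 166 and 162 CPM in WT, 223, 192 and 180.4 with vehicle, 219.8, 167 and 236 with AG221, 154, 148 and 159 with ruxolitinib and 165, 120.2 and 171 with combined treatment. It was called only for combined treatment against AG221 (-0.45 ± 0.16, adjusted p = 0.0426).

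Cxcl10 (chr5:92346638-92348889), the chemokine that draws CXCR3-bearing T cells and is induced by both classes of interferon, was the member past the threshold for the interaction. It measured 1.09, 2.86 and 3.12 CPM in WT, 29.7, 13.7 and 16.9 with vehicle, 50.5, 18 and 23.6 with AG221, 13, 9.74 and 8.13 with ruxolitinib and 0.209, 0.726 and 1.25 with combined treatment. The 3 combined libraries were below all 9 of the other mutant libraries, and only WT library B28 reached into their range. Cxcl10 rose with vehicle over WT (3.09 ± 0.55, adjusted p = 0.00335), stood at -0.97 ± 0.51, adjusted p = 1 with ruxolitinib and 0.61 ± 0.50, adjusted p = 0.459 with AG221, and fell with combined treatment (-4.76 ± 0.62, adjusted p = 0.000849). The interaction was -4.41 ± 0.78, adjusted p = 0.0181. Art3 overlaps 5.9% of its exons on the opposite strand.

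**Figure D5:**
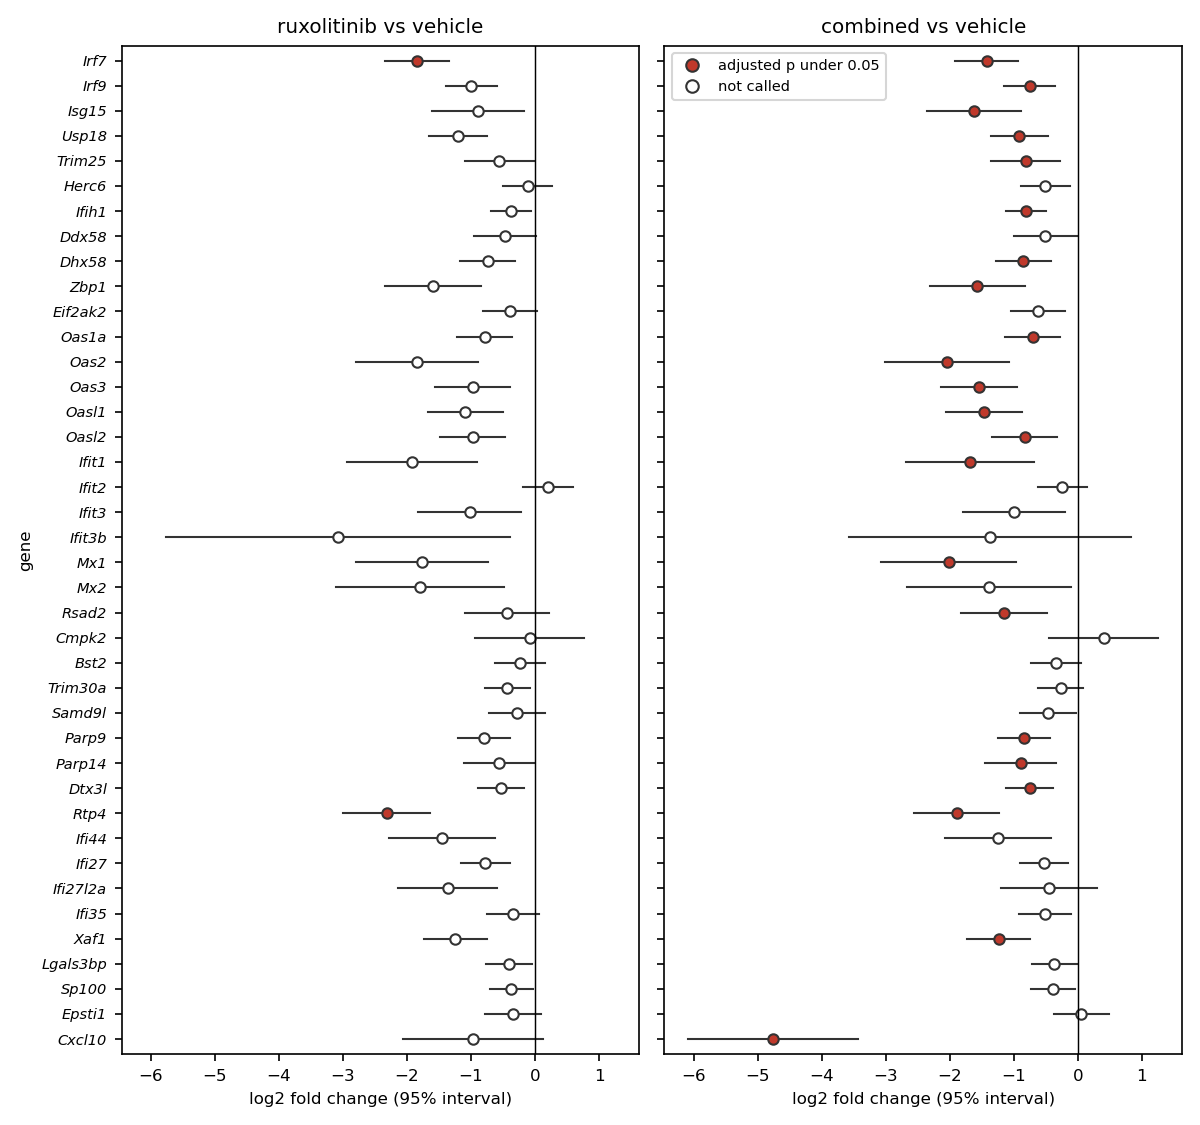
Log2 fold change against vehicle (points) with 95% intervals (lines) for each member under ruxolitinib (left) and combined treatment (right), with filled points at adjusted p under 0.05. On the left, 39 of 40 points lie below 0 and only Irf7 and Rtp4 are filled, and on the right 38 lie below 0 and 22 are filled, with Cxcl10 at -4.76.

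The members with the promoter element and those without it were set side by side for ruxolitinib against vehicle. The 13 with GAAANNGAAA had a median change of -0.78 and 6 of them did not overlap with vehicle, the 16 without it had -0.47 and 9, and the 11 without a promoter in the RefSeq table had -1.37 and 10. The called genes Irf7 and Rtp4 lay outside the first group, Irf7 holding no match in its window and Rtp4 having no entry.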

How the data were processed

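RNA of sorted LSK cells was sequenced as paired-end 50-base reads in 15 libraries. Per the labels and the study's methods, the authors aligned reads with STAR 2.5.1a to mm10 and deposited whole-number counts per Ensembl gene; the annotation release and strand setting are not given in the sources used here. A second deposited table, normalized by the authors with DESeq2 1.6.3, was not used.

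The 40 members and the gene lists were chosen with earlier results of these data known. Counts were fitted once over all 15 libraries with edgeR 4.0.16 (TMM, filterByExpr, quasi-likelihood test, R 4.3.3), giving 11 comparisons. P-values were Benjamini-Hochberg adjusted over 17834 genes, and called means adjusted p under 0.05. CPM used TMM-scaled library sizes. Fold changes are log2 values from the edgeR fit, given ± SE, and adjusted p-values are edgeR's. A prior count of 2 was used for the log2 CPM values that are set against the WT mean, not for the fold changes. DESeq2 1.42.0, other scalings and filters, and leaving out libraries were alternatives. Exact permutation of 3 against 3 libraries cannot go below p = 0.1 and was not used. Genes are named where called in any comparison, where most abundant, or where spread exceeded 8-fold within a group; with no call, the 3 smallest p are given. Exon overlaps come from GENCODE M21 and promoters from RefSeq. The fitting was tested on simulated data.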

Additional observations from a re-analysis of the deposited data

Results flagged for a closer look

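Cxcl10 was the member for which the effect of ruxolitinib differed with and without AG221. The interaction was -4.41 ± 0.78, adjusted p = 0.0181 by edgeR's quasi-likelihood test. Ruxolitinib gave -0.97 ± 0.51 against vehicle, and combined treatment gave -5.37 ± 0.63 against AG221, with all 3 combined libraries below all 3 libraries of each other mutant group. The groups with names in A and in B cannot be told apart from treatment here, and without combined library B25 the adjusted p was 0.0647.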

How the results depend on the processing

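No paired analysis was possible because the groups share no replicate numbers. The number of members called moved by more than 1.5 times under some alternatives. With DESeq2 it was 9 for ruxolitinib against vehicle (2 with edgeR), 3 for AG221 against vehicle (0), 19 for AG221 against ruxolitinib (9), 2 for combined treatment against ruxolitinib (1) and 2 for the interaction (1). Of all genes, DESeq2 called 0.232% lower for ruxolitinib against vehicle and 7.51% lower for AG221 against vehicle. For AG221 against ruxolitinib it called 1212 genes higher and 1143 lower. For combined treatment against ruxolitinib these were 1920 and 1053, and for the interaction 2117 and 1554. With at least 10 counts in every library, the number of members called was 14 for AG221 against ruxolitinib, 6 for vehicle against WT (10) and 0 for the interaction, where Cxcl10 was not tested. Of all genes, 9.58%, 26.8% and 19.5% were called in these fits. In fits of only the groups compared, the number of members called was 0 for AG221 against ruxolitinib, 0 for ruxolitinib against vehicle and 30 for combined treatment against WT (19). Of all genes, 0%, 0% and 10.6% were called there.

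Leaving out single libraries gave 3 to 11 calls for vehicle against WT, 0 to 5 for AG221 against vehicle, 0 to 4 for ruxolitinib against vehicle, 8 to 23 for combined treatment against vehicle, 13 to 22 for AG221 against WT, 22 to 24 for ruxolitinib against WT, 8 to 15 for combined treatment against WT, 11 to 25 for combined treatment against AG221, 1 to 2 for combined treatment against ruxolitinib, 0 to 21 for AG221 against ruxolitinib and 0 to 4 for the interaction. Calls over all genes swung as well. In the same order, their shares ran from 10.5% to 30.9%, 0% to 24.4%, 0% to 0.0471%, 5.26% to 10.3% and 33.9% to 56.4%. From ruxolitinib against WT on, they ran from 10.6% to 27.1%, 0.46% to 2.22%, 15.7% to 42.6%, 5.99% to 9.92%, 0% to 25.1% and 0.23% to 31.8%. Among the genes named with ruxolitinib against vehicle, the value of Cmpk2 changed sign, -0.09 ± 0.40 with all libraries, which turned to 0.35 without vehicle A4 and 0.09 without ruxolitinib A16, within a range from -0.37 to 0.35 over the libraries left out. The cause was not tested. Among single members, leaving out a library changed neither direction nor call status in 797 cases. These include members called neither before nor after, among them most members for ruxolitinib against vehicle. The call was lost in 265 cases and gained in 4, and the direction reversed in 2. For AG221 against vehicle, where no member was called with all libraries, between 16 (without vehicle A1) and 33 (without A4) of the 40 fitted changes were below 0, against 28 with all libraries. Fewer libraries leave less power. Upper-quartile scaling moved the median of all genes to 0.18 for AG221 against vehicle, -0.16 for combined treatment against WT, -0.18 for combined treatment against AG221 and -0.24 for the interaction. Members with few counts, such as Ifit3b, are limited by depth.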
